A study of Homo sapiens with 12 samples.

Results

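The genes described here encode the feedback inhibitors SOCS1, SOCS2, SOCS3 and CISH, the kinases PIM1, PIM2 and PIM3, the receptor-bound Janus kinases JAK2 and JAK3, and BCL3, an atypical IkB protein. They were chosen by gene name and are 10 of 26318 genes in the deposited count table. All 10 passed the filter on low counts, which left 16437 genes. Messenger RNA was measured in TMD8, an established human line of ABC (activated B cell) type diffuse large B cell lymphoma, in which the transcription factor IRF4 is highly expressed. There were 6 libraries of cells treated with a scramble short hairpin RNA (shRNA, here the control) and 6 of cells treated with an shRNA against IRF4, from pellets collected at 24 h. All libraries come from this 1 line, and the number of hairpins, the way they were delivered and whether libraries came from separate cultures are not given in the sources used here, so p-values reflect the spread between libraries, and that spread may be technical. Library names carry a number 1 or 2 of unstated meaning. It splits the libraries into series 1 (replicates 1 to 3 of each group) and series 2 (replicates 4 to 6 of each group), and every comparison was made over all libraries and within each series.

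Cytokine receptors of the families that use Janus kinases carry a pair or more of these kinases on their inner side. Binding of the cytokine lets the kinases phosphorylate the receptor and then STAT factors, which enter the nucleus and switch on genes, among them SOCS genes, CISH and PIM genes. SOCS proteins and CISH then bind kinase or receptor and lower the signal, many of them by bringing a ubiquitin ligase through their SOCS box. PIM kinases are active as soon as they are made, so their amount is set largely by transcription and turnover, and they favour survival, translation and growth. In ABC lymphoma, autocrine IL-6 and IL-10 are known to feed signalling through JAK1 and STAT3, next to chronic NF-kB activity, in which BCL3 acts in the nucleus with the p50 and p52 subunits.

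The 250 bases before the RefSeq start sites of these genes (GRCh38.p14) were searched on both strands for sites of the factors that act on them, because these short elements are what a STAT, IRF or NF-kB protein would bind. Windows were given for 9 of the 10 genes, 13 in all, with none for SOCS2. The sites searched were a STAT site (TTCNNNGAA), the core of an interferon-stimulated response element (ISRE, GAAA and GAAA with any 2 bases between), an ETS-IRF composite site (GGAA and GAAA with any 2 bases between) and an NF-kB site of the usual consensus. Only 3 windows held any of them, those of CISH, SOCS1 and JAK3, and no site overlapped another. CISH held 4 STAT sites, in the capitals of the first pair of lines, at chr3:50611992-50612019 and chr3:50611876-50611905 on the minus strand. The first of these stretches also lies in an annotated exon of MAPKAPK3, which is transcribed the other way. SOCS1 held 1 ISRE core, 113 to 104 bases before its start, shown in capitals within chr16:11256255-11256354 on the minus strand, a stretch outside annotated exons. JAK3 held 1 NF-kB site, 30 to 21 bases before this start, shown in capitals within chr19:17847993-17848022 on the minus strand, where longer annotated JAK3 transcripts already have an exon.
CISH, 245 to 218 bases before the start: cgttTTCCTGGAAagTTCTTGGAAatct
CISH, 131 to 102 bases before the start: ggTTCTAGGAAgacgctgcTTCCGGGAAgg
SOCS1, 150 to 51 bases before the start: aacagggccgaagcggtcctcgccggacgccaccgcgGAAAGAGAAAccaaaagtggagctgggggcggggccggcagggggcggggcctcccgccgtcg
JAK3, 40 to 11 bases before the start: ggagccgagtGGGACTTTCCtctcgctgcc

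A match is a description of the letters and not a measured binding site. Of all 35116 windows of this length, 6.57% held at least 1 STAT site, 3.02% an ISRE core, 2.41% an ETS-IRF site and 5.21% an NF-kB site. The windows of PIM1, PIM2, PIM3, JAK2, BCL3 and SOCS3 held none of these letters. For SOCS3 and BCL3 the RefSeq starts used lay away from the gene starts given below. Those of SOCS3 lay 410 bases inside the gene and 848 bases before it, and that of BCL3 lay 1003 bases inside its gene. The bases directly before the gene starts of SOCS3 and BCL3 were therefore not searched, and whether they hold such sites was not tested.

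The targeted messenger RNA, IRF4, was depleted in all 6 IRF4 shRNA libraries. Controls ranged from 1427 to 1571 CPM (counts per 1e6 counts on library sizes scaled by TMM), series 1 of the IRF4 shRNA group from 507 to 526 CPM and series 2 from 689 to 716 CPM, so the depletion differed between the series. Libraries held 31.3 to 38.2 M counts (M, 1e6 counts), and 3 counts correspond to 0.0786 to 0.0959 CPM. The line carried B cell markers in both groups: control and then IRF4 shRNA levels were 2141 ± 211 and 2806 ± 153 CPM for MS4A1, 661 ± 37.4 and 1127 ± 30.4 CPM for CD79A, 567 ± 33.4 and 577 ± 16.2 CPM for CD79B, and 1059 ± 69.8 and 1189 ± 15.95 CPM for PAX5 (SD, n = 6 each). Markers of T cells (0.426 to 0.797 and 0.299 to 0.618 CPM), myeloid cells (0.445 to 1.17 and 1.44 to 1.91 CPM) and epithelial or stromal cells (3.82 to 5.33 and 5.75 to 7.50 CPM) were low. CD3E averaged 0 and 0.00511 CPM and MPO had no count, while COL1A1 (4.18 and 5.07 CPM) gave most of the last sum. Libraries also differed in a technical measure that touches several genes below: the relation, across 13420 genes, of transcript GC content with how far each gene lay from the mean of its group (Spearman's rho), called the GC trend. It was -0.05, -0.54 and -0.58 in control replicates 1 to 3, and -0.42, 0.47 and 0.66 in control replicates 4 to 6. With IRF4 shRNA it was 0.26 to 0.37 in series 1 and -0.38 to -0.23 in series 2. Control replicates 5 and 6 stood apart from control replicate 4 of the same series. Where the GC trend is said below to be removed, the distance was taken from the mean over all libraries of the fit instead. Such removal therefore also takes out differences between the groups that go with GC content.

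Over all libraries, JAK3 and PIM3 rose and PIM1 and PIM2 fell with IRF4 shRNA. In these bulk samples a change in the share of cells that make a transcript and a change in its amount per cell cannot be told apart. The other 6 genes did not pass the test, an edgeR quasi-likelihood test with p-values adjusted by Benjamini-Hochberg over all genes and a threshold of 0.05. These 2 rises and 2 falls among 10 genes stand beside 24.2% of all tested genes called higher and 23.9% called lower, so the number of calls was near the background. The median log2 fold change of the 10 genes was -0.06, and that of all genes -0.0056. Groups did not overlap at all for PIM1 and PIM2, which were lower in every IRF4 shRNA library, and for JAK3, which was higher in every one. In all genes, 16.2% did not overlap in the higher direction and 14.7% in the lower.

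Within series 1, 5 genes rose (SOCS1, SOCS3, PIM3, JAK3 and BCL3) and 3 fell (PIM1, PIM2 and JAK2), beside 23.7% of all genes called higher and 22.3% called lower. The 3 control and 3 IRF4 shRNA libraries of this series did not overlap for any of the 10 genes, where 58.1% of all genes did not overlap. For SOCS2 the nearest libraries held 20 counts (control, 0.5829 CPM) and 19 counts (IRF4 shRNA, 0.5825 CPM). For CISH the lowest control held 14 counts and the highest IRF4 shRNA library 10. Neither of these genes passed the test in series 1. Within series 2, JAK3 alone rose and PIM1 and PIM2 fell, beside 22.6% called higher and 22.7% called lower. These 3 genes were also the ones whose groups did not overlap in series 2, where 50.4% of all genes did not.

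**Figure D1:**
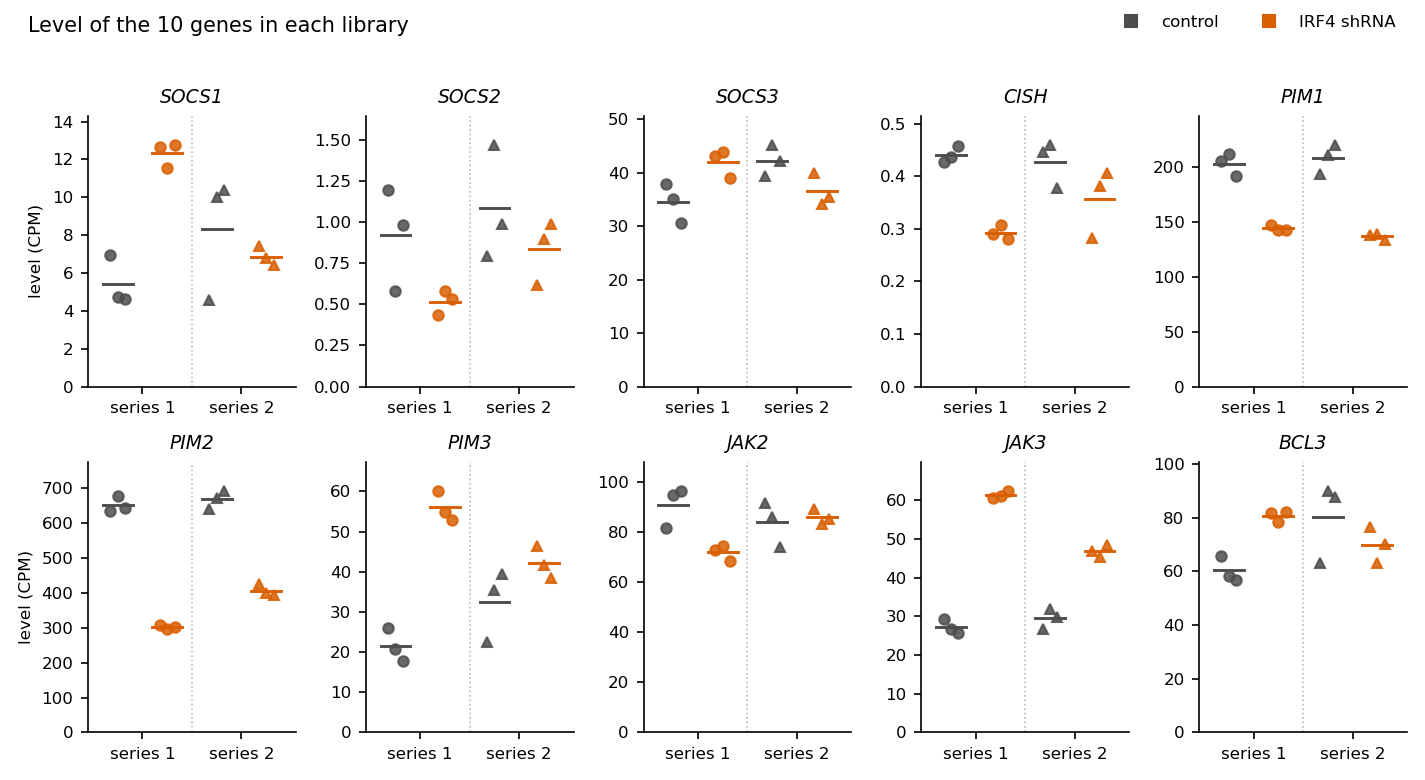
Level of each gene in CPM (vertical axes, from 0) in each of 12 libraries, with circles for series 1, triangles for series 2 and bars for the mean of 3 libraries. In series 1 the groups separate for all 10 genes, though for SOCS2 only by 0.5829 against 0.5825 CPM, while in series 2 they separate for PIM1, PIM2 and JAK3 only.

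Per kilobase of exon, PIM2 had the highest level of the 10 genes in controls, 239 ± 8.59 CPM per kb (SD, n = 6), followed by PIM1 at 69.1 ± 3.74. BCL3 (21.7 ± 4.54), JAK2 (14.2 ± 1.39), SOCS3 (14.1 ± 1.88) and PIM3 (10.95 ± 3.50) came next, then JAK3 (4.16 ± 0.340) and SOCS1 (3.83 ± 1.52). SOCS2 (0.148 ± 0.0455) and CISH (0.0849 ± 0.00595 CPM per kb) were the lowest. Neighbours in this order whose control libraries overlapped were JAK2 and SOCS3, SOCS3 and PIM3, JAK3 and SOCS1, and SOCS2 and CISH. With IRF4 shRNA the order changed at PIM3, which at 19.9 ± 3.40 CPM per kb stood above SOCS3 (14.4 ± 1.43) and JAK2 (12.8 ± 1.32), with ranges that overlapped its neighbours BCL3 (23.2 ± 2.26) and SOCS3.

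**Figure D2:**
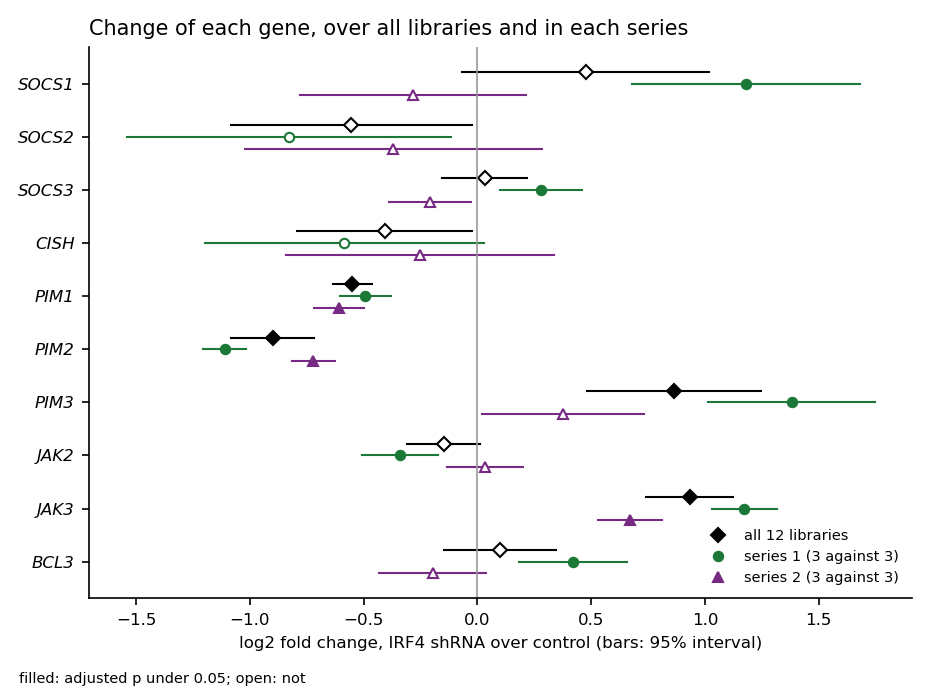
Log2 fold change of each gene, IRF4 shRNA over control (horizontal axis), with its 95% interval, over all 12 libraries (diamonds), in series 1 (circles) and in series 2 (triangles), filled where the adjusted p was under 0.05. The interval of CISH over all libraries is too narrow for its test. PIM1, PIM2, PIM3, JAK3, SOCS2 and CISH lie on 1 side of 0 in all 3 comparisons, whereas SOCS1, SOCS3, BCL3 and JAK2 (0.03 in series 2) change sides between the series.

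SOCS1, which blocks the catalytic site of Janus kinases through a pseudosubstrate segment, is encoded on chromosome 16 (11254408 to 11256204, minus strand, hg38). Its level in series 1 was 6.93, 4.72 and 4.64 CPM in controls and 12.6, 11.6 and 12.8 CPM with IRF4 shRNA. In series 2 it was 4.58, 10.02 and 10.4 CPM in controls and 7.41, 6.77 and 6.41 CPM with IRF4 shRNA. Series 1 thus had no overlap, and in series 2 the IRF4 shRNA libraries lay between control replicate 4 and control replicates 5 and 6. The log2 fold change was 0.47 over all libraries (SE 0.25, adjusted p = 0.138), 1.18 in series 1 (SE 0.23, adjusted p = 0.000859) and -0.28 in series 2 (SE 0.23, adjusted p = 0.341). The value over all libraries passed once control replicate 6 was left out (0.63, adjusted p = 0.0491) or replicates 5 and 6 of the controls were (0.87, adjusted p = 0.00545), and once the GC trend of each library was removed (0.36, adjusted p = 0.00215), over a range of adjusted p from 0.00215 to 0.351 in 23 alternatives. The value of series 2 turned positive without control replicates 5 and 6 (0.58, adjusted p = 0.0398, against the 1 control library left) and with the GC trend removed (0.17, adjusted p = 0.137). Without control replicate 4 it was instead a fall that passed (-0.57, adjusted p = 0.00208), so the sign in series 2 turned on which control libraries were kept. Transcript GC content of SOCS1 is 67.3%, higher than that of 99.1% of tested genes.

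SOCS3, which binds the gp130 chain of the IL-6 receptor together with its kinase, is encoded on chromosome 17 (78356778 to 78360077, minus strand). Its level was 30.7 to 45.2 CPM in controls (median 38.6) and 34.2 to 43.9 CPM with IRF4 shRNA (median 39.5). The groups overlapped throughout, and the log2 fold change over all libraries was 0.03 (95% interval -0.16 to 0.22, adjusted p = 0.795). In series 1 SOCS3 rose from 34.5 ± 3.604 to 42.0 ± 2.63 CPM (SD, n = 3 each), a log2 fold change of 0.28 (edgeR adjusted p = 0.0141). Series 2 had means of 42.3 ± 2.94 CPM for controls and 36.5 ± 2.99 CPM for IRF4 shRNA, a log2 fold change of -0.21 (edgeR adjusted p = 0.0547). The rise in series 1 did not pass without control replicate 3 (0.20, adjusted p = 0.0743) or without replicate 2 of the IRF4 shRNA group (0.26, adjusted p = 0.0559). In series 2 it passed as lower in 5 of 19 alternatives: the robust fit (adjusted p = 0.0461), and leaving out control replicate 1 (0.0407), 3 (0.0348) or 4 (0.0159) or replicate 4 of the IRF4 shRNA group (0.0397), with log2 fold changes of -0.21, -0.21, -0.21, -0.26 and -0.27. With the GC trend removed both values changed sign, to -0.47 in series 1 (adjusted p = 0.0194) and 0.21 in series 2 (adjusted p = 0.282). SOCS3 has a GC content of 68.1%, higher than 99.5% of tested genes.

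SOCS2, best known as a brake on growth hormone receptor signalling, is encoded on chromosome 12 (93569814 to 93583487, plus strand) and was rare in TMD8. Control libraries held 20 to 48 of its counts and IRF4 shRNA libraries 15 to 39, or 0.583 to 1.47 and 0.434 to 0.991 CPM. The log2 fold change was -0.56 over all libraries (95% interval -1.08 to -0.03, adjusted p = 0.0784), -0.83 in series 1 (adjusted p = 0.0555) and -0.37 in series 2 (adjusted p = 0.345). All 3 values were negative and none passed the test. Over all libraries it passed with the library series as a block (-0.58, adjusted p = 0.0482), when control replicate 2 was left out (-0.67, adjusted p = 0.0303) and when replicate 6 of the IRF4 shRNA group was (-0.69, adjusted p = 0.0406). It did not pass on counts summed per group and series (-0.55, adjusted p = 0.226), and adjusted p ran from 0.0303 to 0.252 over 23 alternatives. In series 1 it passed in 4 of 19 alternatives, without control replicate 2 (-1.07, adjusted p = 0.019), 4 (-0.83, adjusted p = 0.0426) or 5 (-0.83, adjusted p = 0.0437), or without control replicates 5 and 6 (-0.83, adjusted p = 0.041). Its exons share 277 bp with the antisense gene SOCS2-AS1, which averaged 6.08 counts per library.

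CISH, the family member induced by STAT5 and the one with the 4 STAT sites printed above, is encoded on chromosome 3 (50606489 to 50611774, minus strand). It was close to the limit of detection, with 13 to 15 counts per control library and 10 to 16 per IRF4 shRNA library, or 0.377 to 0.460 and 0.281 to 0.407 CPM. The log2 fold change was -0.41 over all libraries (95% interval -0.79 to -0.03, adjusted p = 0.135), and the depth does not show a difference within either series (-0.58, adjusted p = 0.141, and -0.25, adjusted p = 0.539). That interval leaves out 0 although the edgeR p before adjustment was 0.0788, so it is too narrow for this gene. STAT5A, a gene for the factor that binds such sites, rose in the same libraries from 1.32 ± 0.205 to 16.9 ± 0.844 CPM (SD, n = 6 each), while STAT5B fell from 48.9 ± 2.69 to 43.0 ± 3.03 CPM. CISH exons share 218 bp with MAPKAPK3 on the opposite strand, a gene of 1387 counts per library on average, so its few counts may include reads of that gene if strand was not used in counting, which is not stated. Of the levels of all 8 genes of the SOCS family, SOCS3 took 33.2% ± 3.43 in controls and 33.4% ± 1.74 with IRF4 shRNA, and the family sum was 42.2 ± 1.38 and 43.0 ± 2.74 CPM per kb (SD, n = 6 each).

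PIM2, the PIM kinase typical of plasma cells and the most abundant of the 3 here, fell in both series, more so in series 1. The gene lies on the X chromosome (48913182 to 48919024, minus strand). In series 1 its level was 634, 677 and 644 CPM in controls and 308, 296 and 301 CPM with IRF4 shRNA. Series 2 had 640.4, 671 and 693 CPM in controls and 424, 398 and 394 CPM with IRF4 shRNA. All 6 controls thus lay within 634 to 693 CPM and all 6 IRF4 shRNA libraries within 296 to 424 CPM, with the 2 series of the IRF4 shRNA group apart from each other. PIM2 was at 46.3% of control in series 1 and 60.7% in series 2. The log2 fold changes were -0.90 over all libraries (SE 0.09, adjusted p = 5.31e-07), -1.11 in series 1 (SE 0.04, adjusted p = 7.14e-11) and -0.72 in series 2 (SE 0.04, adjusted p = 8.56e-09). The difference between the series was 0.39 (95% interval 0.26 to 0.52, adjusted p = 0.00436), and it passed in all 21 alternatives, including removal of the GC trend and leaving out control replicates 5 and 6. IRF4 itself went to 34.7% and 47.9% of control in the same series, a log2 difference of 0.46 (edgeR adjusted p = 0.0011).

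PIM1, a STAT-induced kinase that is also a frequent target of aberrant somatic hypermutation in this lymphoma, fell by nearly the same amount in both series. It is encoded on chromosome 6 (37170152 to 37175428, plus strand). Its level in series 1 was 206, 212 and 191 CPM in controls and 147, 143 and 143 CPM with IRF4 shRNA. Its series 2 levels were 194, 211 and 220.3 CPM in controls and 138, 139 and 133 CPM with IRF4 shRNA. The lowest control exceeded the highest IRF4 shRNA library. The log2 fold change was -0.55 (SE 0.04, adjusted p = 2.3e-08) over all libraries, -0.49 in series 1 and -0.61 in series 2, with a difference between the series of -0.11 (95% interval -0.27 to 0.04, adjusted p = 0.299).

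PIM3, the PIM kinase usually described in epithelial tumours, moved the other way. It is encoded on chromosome 22 (49960768 to 49964072, plus strand). In series 1 its level was 26.0, 20.7 and 17.8 CPM in controls and 60.2, 55.0 and 52.9 CPM with IRF4 shRNA. Series 2 gave 22.4, 35.4 and 39.4 CPM in controls and 46.3, 41.6 and 38.4 CPM with IRF4 shRNA, so that the highest control and the lowest IRF4 shRNA library overlapped. The log2 fold change was 0.86 over all libraries (SE 0.18, adjusted p = 0.000961), 1.38 in series 1 (SE 0.17, adjusted p = 1.21e-05) and 0.38 in series 2 (SE 0.17, adjusted p = 0.0798). The rise over all libraries passed in all 23 alternatives, with log2 fold changes from 0.74 to 1.17. The value of series 2 passed without control replicate 6 (0.54, adjusted p = 0.0203) and with library size alone (0.46, adjusted p = 0.0337). How the rise divided between the series did not hold: with the GC trend removed it was 0.29 in series 1 (adjusted p = 0.103) and 1.19 in series 2 (adjusted p = 2.43e-06), and without control replicates 5 and 6 it was 1.38 and 0.91 (adjusted p = 0.000347 in series 2). At 72.2% GC, higher than 99.9% of tested genes, PIM3 lies at the edge of the range over which the GC trend is set.

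Seen per kilobase of exon, the pool of PIM transcripts was smaller with IRF4 shRNA and made up differently. Its sum was 319 ± 14.6 CPM per kb in controls and 195 ± 17.1 with IRF4 shRNA (SD, n = 6 each), with 304.7 to 341 against 178 to 219 CPM per kb, so the groups did not overlap. PIM2 made up 74.9% ± 1.15 of the pool in controls, and 60.5% ± 0.471 and 69.9% ± 0.512 with IRF4 shRNA in series 1 and 2 (n = 3 each). PIM3 made up 3.40% ± 0.954 in controls, and 12.6% ± 0.577 and 8.14% ± 0.462 with IRF4 shRNA. PIM1 took 21.7% ± 0.448 in controls, and 26.9% ± 0.199 and 21.9% ± 0.701 with IRF4 shRNA.

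**Figure D3:**
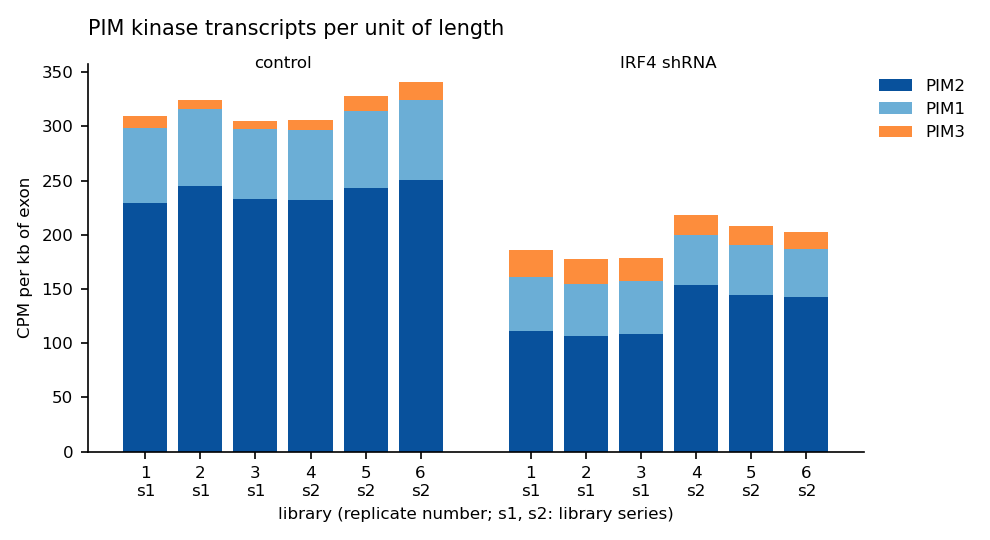
CPM per kb of exon (vertical axis, from 0) of PIM2, PIM1 and PIM3, stacked, in each library (horizontal axis, replicate number with its series). The bars of the 6 IRF4 shRNA libraries reach 178 to 219 and those of the 6 controls 304.7 to 341, and the PIM3 layer is thicker with IRF4 shRNA.

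JAK3, the kinase that pairs with the common gamma chain of the IL-2 receptor family, rose in both series. It is encoded on chromosome 19 (17824780 to 17848071, minus strand). In series 1 its level was 29.2, 26.8 and 25.6 CPM in controls and 60.4, 61.1 and 62.5 CPM with IRF4 shRNA. Levels in series 2 were 26.8, 31.8 and 29.8 CPM in controls and 46.9, 45.3 and 48.4 CPM with IRF4 shRNA. The highest control was far below the lowest IRF4 shRNA library, and the 2 series of the IRF4 shRNA group again did not overlap. The log2 fold change was 0.93 over all libraries (SE 0.09, adjusted p = 5.84e-07), with 0.81 to 1.01 over 23 alternatives. It was 1.17 in series 1 (SE 0.07, adjusted p = 3.13e-09) and 0.67 in series 2 (SE 0.07, adjusted p = 1.45e-06). The difference between the series, -0.50 (adjusted p = 0.00912), was -0.09 with the GC trend removed (adjusted p = 0.528) and -0.36 when replicates 5 and 6 of the controls were left out (adjusted p = 0.0743).

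JAK2, which serves receptors such as those of erythropoietin, growth hormone and interferon gamma, is encoded on chromosome 9 (4984390 to 5129948, plus strand) and has the lowest GC content of the 10 genes, 40.9%. In series 1 it fell from 91.1 ± 8.22 to 72.0 ± 2.99 CPM (SD, n = 3 each), a log2 fold change of -0.34 (edgeR adjusted p = 0.00253), and passed in all 19 alternatives. Means in series 2 were 84.1 ± 8.97 CPM for controls and 85.9 ± 3.14 CPM for IRF4 shRNA, a log2 fold change of 0.03 (95% interval -0.13 to 0.20, edgeR adjusted p = 0.763). Over all libraries it was -0.15 (95% interval -0.31 to 0.01, adjusted p = 0.118), and it passed with the GC trend removed (-0.16, adjusted p = 0.0222), when control replicate 6 (-0.19, adjusted p = 0.0309) or replicates 5 and 6 of the controls (-0.21, adjusted p = 0.0265) were left out, over a range of adjusted p from 0.0222 to 0.442.

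Of the remaining Janus kinases, JAK1, the partner of most cytokine receptors, rose from 215 ± 10.8 to 297 ± 6.32 CPM (SD, n = 6 each), or by 0.47 on the log2 scale (SE 0.04, adjusted p = 3.85e-08 by edgeR). TYK2, which serves the type I interferon receptor, was at 188 ± 25.0 and 189.7 ± 13.6 CPM (log2 fold change 0.02, edgeR adjusted p = 0.887). Its series differed (-0.39 as series 2 minus series 1, adjusted p = 0.0397), with a log2 fold change of 0.21 in series 1 (adjusted p = 0.0462) and -0.18 in series 2 (adjusted p = 0.0923, not passing). With the GC trend removed 1 of this pair was called higher and 1 lower, beside 55.1% of all tested genes called in either direction. Summed per kilobase, the 4 Janus kinases went from 80.0 ± 1.27 to 95.8 ± 1.4 CPM per kb without overlap (78.6 to 82.0 and 94.1 to 98.3). In that pool JAK3 went from 5.19% ± 0.354 to 8.28% ± 1.16 and JAK2 from 17.8% ± 1.92 to 13.4% ± 1.49, while JAK1 remained the largest part at 42.5% ± 2.67 and 49.1% ± 1.37.

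BCL3, the nuclear IkB protein, is encoded on chromosome 19 (44747705 to 44760044, plus strand). Its level in series 1 was 65.9, 58.4 and 56.9 CPM in controls and 81.6, 78.5 and 82.1 CPM with IRF4 shRNA. Series 2 levels were 62.9, 90.1 and 87.5 CPM in controls and 76.5, 63.3 and 70.2 CPM with IRF4 shRNA. It rose in series 1 (0.42, SE 0.11, adjusted p = 0.0067), while the groups of series 2 overlapped (-0.20, SE 0.11, adjusted p = 0.162). Without control replicate 4 the value of series 2 was a fall that passed (-0.34, adjusted p = 0.000665), and without control replicates 5 and 6 it was 0.15 (adjusted p = 0.253). Over all libraries the log2 fold change was 0.10 (95% interval -0.15 to 0.35, adjusted p = 0.503), and 0.30 with control replicates 5 and 6 left out (adjusted p = 0.00281). With the GC trend removed the values were -0.17 in series 1 (adjusted p = 0.0413) and 0.12 in series 2 (adjusted p = 0.133). BCL3 has a GC content of 65.9%, higher than 98.2% of tested genes.

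The effect of IRF4 shRNA differed between the series for 7 of the 10 genes, beside 14% of all tested genes. Taken as series 2 minus series 1, the differences in log2 fold change were -1.46 for SOCS1 (adjusted p = 0.0153), -1.004 for PIM3 (adjusted p = 0.0172), -0.62 for BCL3 (adjusted p = 0.0223), -0.50 for JAK3, -0.49 for SOCS3 (adjusted p = 0.0193), 0.39 for PIM2 and 0.37 for JAK2 (adjusted p = 0.0392). It did not pass for PIM1, SOCS2 (0.46, adjusted p = 0.522) or CISH (0.33, adjusted p = 0.65). With the GC trend removed 2 of the 10 passed, PIM2 and PIM3, the latter with the opposite sign (0.90, adjusted p = 0.0121). The share of all tested genes was then 8.35%. Leaving out control replicates 5 and 6 leaves 1 control library in series 2. The differences were then -0.59 for SOCS1, -0.47 for PIM3, -0.27 for BCL3, -0.36 for JAK3, -0.39 for SOCS3 and 0.24 for JAK2. The 5 genes with a negative difference that passed are the 5 of highest GC content among the 10. Their levels moved with the GC trend of the libraries within each group. That trend is computed from these same libraries, so genes of high GC content follow it in part by construction. In controls, SOCS1, SOCS3, PIM3, BCL3 and JAK3 were highest in control replicates 5 and 6, where the GC trend was 0.47 and 0.66. With IRF4 shRNA these genes averaged higher in series 1, where the GC trend was positive. The part of the GC trend in the series difference beyond the values given was not tested. With IRF4 shRNA the sign of the GC trend went with the series number, so what that number stands for cannot be told apart from it there. In controls trend and series did not coincide, with -0.42 in control replicate 4 of series 2 beside -0.58 to -0.05 in series 1.

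**Figure D4:**
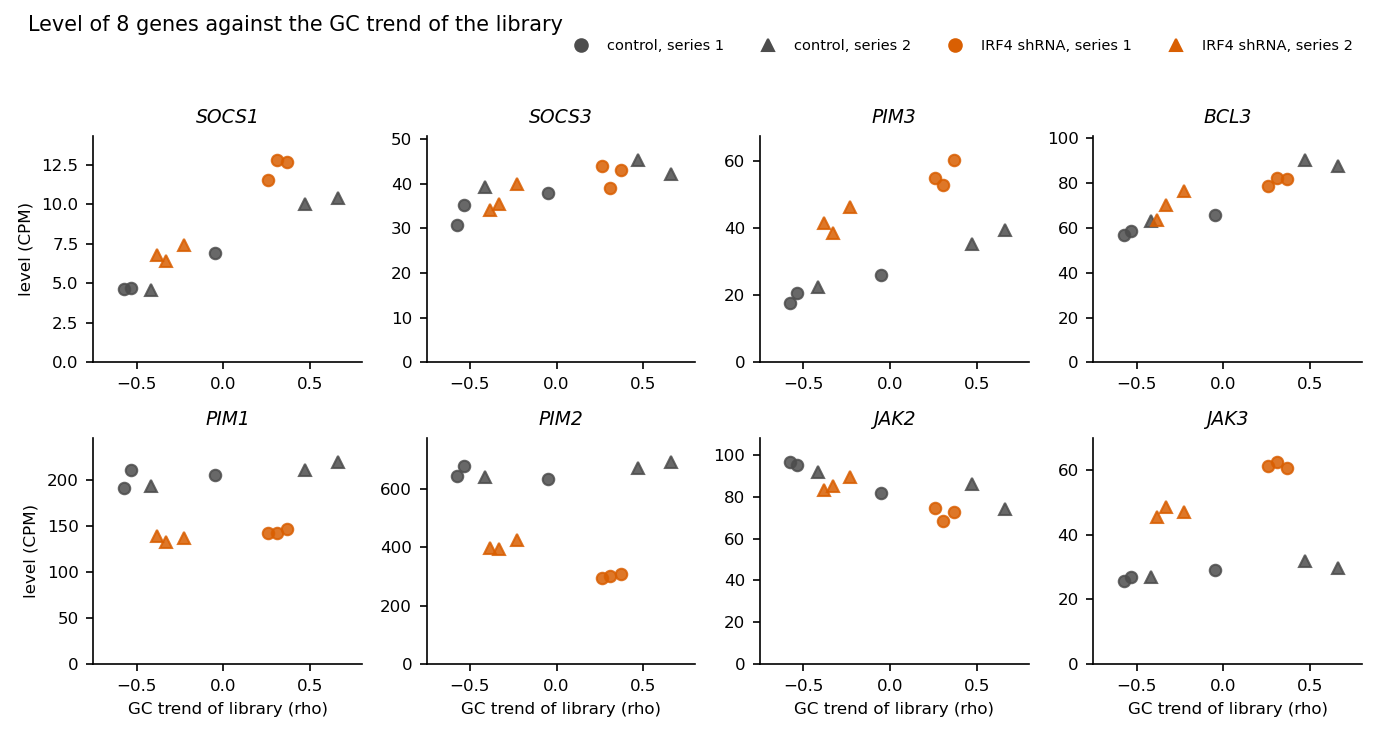
Level in CPM (vertical axes, from 0) of 8 genes against the GC trend of the library (horizontal axes, Spearman's rho of GC content with distance from the group mean, over 13420 genes), in 12 libraries. SOCS1, PIM3 and BCL3 are higher in every library with a positive trend than in any with a negative trend of the same group. SOCS3 is so in controls but overlaps with IRF4 shRNA (39.0 against 39.9 CPM). The trend is computed from these same libraries, so genes of high GC content follow it in part by construction. The groups do not overlap for PIM1, PIM2 and JAK3.

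**Figure D5:**
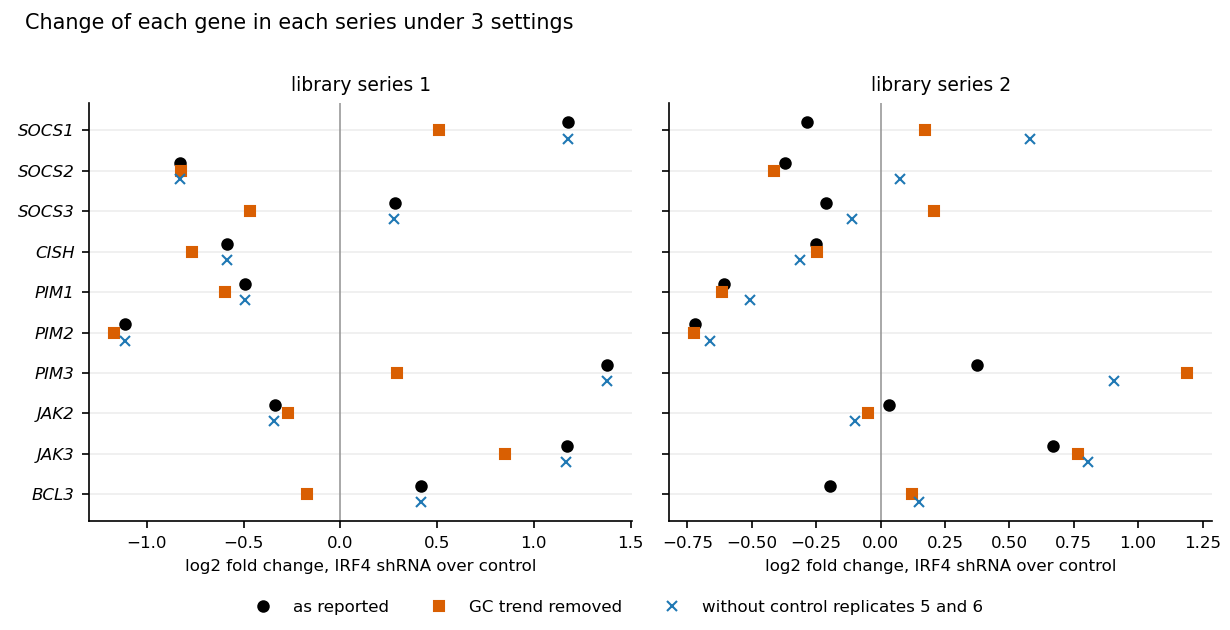
Log2 fold change of each gene, IRF4 shRNA over control (horizontal axes), in series 1 (left) and series 2 (right) as reported (circles), with the GC trend of each library removed (squares) and without control replicates 5 and 6 (crosses). PIM1, PIM2, PIM3, JAK3 and CISH keep their side of 0, whereas SOCS3 and BCL3 change sign with the GC trend removed in both series.

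Around these genes, STAT3, the factor of IL-6 and IL-10, rose from 395 ± 10.5 to 571 ± 28.6 CPM, and STAT6, the factor of IL-4, from 486 ± 17.0 to 579.9 ± 18.0 CPM (SD, n = 6 each). The fall of STAT5B did not pass when library sizes alone replaced TMM. The SOCS genes outside the 10 split, with SOCS5 higher (17.5 ± 1.86 to 22.03 ± 1.02 CPM), SOCS7 lower (77.8 ± 3.43 to 59.6 ± 1.497 CPM) and SOCS4 and SOCS6 not passing (log2 fold changes 0.07 and 0.03). With the GC trend removed 2 of these 4 were higher, beside 55.1% of all tested genes called in either direction, 45% of those calls being rises. Without that removal 24.2% of all tested genes were called higher and 23.9% lower. Of 5 partners of the SOCS box 1 was lower, beside 23.9% of all tested genes, and 0 were higher, beside 24.2%. The lower one was RNF7, a subunit of the ubiquitin ligase (47.0 ± 2.32 to 41.7 ± 1.49 CPM). ELOB, ELOC and CUL5 had log2 fold changes of 0.06, 0.10 and -0.12. With library size alone 1 of the 5 was higher, beside 50% of all tested genes called in either direction, 63.9% of those calls being rises.

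Brakes on the pathway other than SOCS proteins went both ways, with 4 of 13 higher and 3 lower, near the 24.2% and 23.9% of all tested genes. With library size alone 5 were higher and 1 lower, beside 50% of all tested genes called in either direction, 63.9% of those calls being rises. PTPN6, the phosphatase SHP-1, rose from 229.7 ± 12.03 to 557 ± 39.0 CPM and PTPRC, the phosphatase CD45, from 732 ± 74.95 to 1127 ± 29.3 CPM. USP18, which holds back the type I interferon receptor, rose from 4.34 ± 0.400 to 44.7 ± 4.89 CPM. SH2B3, the adaptor LNK that restrains JAK2, fell from 191 ± 8.60 to 102 ± 13.4 CPM, with log2 fold changes of -1.11 in series 1 and -0.73 in series 2.

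Of 21 tested receptor chains 10 were higher and 4 lower, where all tested genes gave 24.2% and 23.9%. With library size alone 13 were higher and 2 lower, beside 50% of all tested genes called in either direction, 63.9% of those calls being rises. With the GC trend removed 10 were higher and 7 lower, beside 55.1% called, 45% of those calls being rises. IL2RG, the common gamma chain that JAK3 binds, rose from 81.4 ± 3.40 to 177 ± 7.39 CPM, with log2 fold changes of 1.06 and 1.18 in series 1 and 2, and IL2RB, the beta chain of the IL-2 and IL-15 receptors, from 22.9 ± 1.83 to 71.4 ± 3.50 CPM. IL27RA and IL12RB1 had log2 fold changes of 1.26 (SE 0.05) and 1.34 (SE 0.10). Of 8 tested ligands 4 were higher and 2 lower, again beside 24.2% and 23.9% of all tested genes. IL10 and IL6, the autocrine cytokines of this lymphoma, had log2 fold changes of 2.84 and 2.78 in series 1 and of 2.36 and 2.28 in series 2, and IL6 went from 1.122 ± 0.281 to 6.40 ± 0.504 CPM. IL23A rose from 0.467 ± 0.181 to 2.08 ± 0.345 CPM and IL12B fell from 4.11 ± 0.541 to 2.23 ± 0.369 CPM. As for JAK3, the control and IRF4 shRNA libraries did not overlap for IL2RG, which held in the higher direction for 16.2% of all tested genes.

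Genes known to respond to STAT3, STAT5 or PIM kinases split, with 6 of 16 higher and 5 lower (median -0.05), while 24.2% of all tested genes were higher and 23.9% lower. Among the D cyclins, CCND2 fell from 560.3 ± 24.1 to 395 ± 29.1 CPM, CCND3 rose from 17.1 ± 1.54 to 33.9 ± 5.196 CPM and CCND1 rose from 0.641 ± 0.118 to 1.87 ± 0.359 CPM. HIF1A, the hypoxia factor, rose from 191 ± 7.17 to 267 ± 12.3 CPM. Of 10 NF-kB subunits and IkB proteins 6 were higher and 0 lower, against the same 24.2% and 23.9%. With the GC trend removed 5 were higher and 3 lower, beside 55.1% of all tested genes called in either direction, 45% of those calls being rises. Within series 1, 4 of these 10 were higher and 0 lower, beside 23.7% and 22.3% of all tested genes. Within series 2, 3 were higher and 2 lower, beside 22.6% and 22.7%. REL, the c-Rel subunit, rose from 146 ± 14.1 to 262 ± 16.7 CPM, and NFKBIE, NFKBID and NFKB1 had log2 fold changes of 0.37, 0.39 and 0.20 (SD, n = 6 each throughout).

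The genes whose log2 CPM followed each of the 4 changed genes most closely over the 12 libraries were found by Pearson's r, as a description in which the split between the groups is shared by all of them. For PIM2 these were GZMB (r = 0.996), MTCL1 and CDC42BPB (0.995 each), and for PIM1 they were RPS2P46, RNF122 and ATF5 (0.994 each). For JAK3 they were ADGRB2 (0.995), PAQR4 (0.994) and DNMT1 (0.993), and for PIM3 they were RPTOR and PFKL (0.993 each) and GSDMD (0.992). Over 0.95 lay 391 genes for PIM2, 395 for PIM1, 378 for JAK3 and 155 for PIM3, so these profiles were common ones.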

How the data were processed

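The table deposited by the authors holds estimated counts per gene for 12 libraries, not normalized. The submitters' processing notes name STAR, HTSeq and hg38, with no versions. Library preparation was poly(A) and stranded (TruSeq), with 100 bp paired-end reads, per the labels' protocols. Only 66.6% of values were whole (tolerance 1e-06), and no source used here names the step that gave fractions. Neither the annotation nor the use of strand in counting is stated either. A cell line field counts upward from TMD8 over the samples while every title says TMD8, so the titles were followed.

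Counts were rounded and tested with edgeR 4.0.16 in R 4.3.3 (TMM, filterByExpr with a minimum count of 10, quasi-likelihood test), once by group over all libraries and once with a mean for each group and series, from which the effects within a series and their difference were taken. Benjamini-Hochberg adjustment ran over 16437 genes. SE is the log2 fold change over the square root of F. The tests were checked on simulated counts, drawn independently for each gene without a GC trend or a series effect. That check therefore does not cover the trends seen in these libraries. IRF4 was also tested by an exact two-sided permutation test (p = 0.00216, the smallest 6 against 6 can give). CPM are per 1e6 counts on TMM-scaled library sizes, and levels per kb use the exon union of GENCODE 29, whose names matched 24812 genes of the table. GC content was known for 96.3% of tested genes, and the GC trend was removed by a loess offset per library (span 0.5). That offset was set on the distance of each gene from its mean over all libraries of the fit, not from its group mean. Coordinates are those of the table on hg38. Replicate libraries differed by more than sampling noise and each counted as 1 sample.

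Results that rest on some genes of the marker and STAT lists are not reported here. The 10 genes, the lists around them and the alternatives were chosen with earlier results of these data known. All 10 genes are named, with up to 4 genes of each list by smallest adjusted p at a mean of at least 1 CPM, and the 3 most correlated genes of each of the 10 that changed over all libraries. Alternatives were DESeq2 1.42.0 (size factors in edgeR, and its Wald test), library size alone, no filter, a robust fit, blocks, removal of the GC trend, leaving out libraries and summed counts. Leaving out control replicates 5 and 6 within the series, alone or with the GC trend removed, was added after seeing the data. Intervals and floors cover counting error or the spread between libraries only, because reads counted without molecular identifiers can repeat 1 molecule.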

Additional observations from a re-analysis of the deposited data

Results flagged for a closer look

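The effect of IRF4 shRNA differed between the library series, by the edgeR interaction test over all libraries, for 7 of the 10 genes, beside 14% of all tested genes. As series 2 minus series 1 on the log2 scale, the difference was -1.46 for SOCS1, -0.49 for SOCS3, 0.39 for PIM2, -1.004 for PIM3, 0.37 for JAK2, -0.50 for JAK3 and -0.62 for BCL3. The value of PIM2 passed in 21 of 21 alternatives, that of JAK3 in 18, that of SOCS1 in 17, those of SOCS3 and PIM3 in 12 each, and those of JAK2 and BCL3 in 8 each. For PIM3 the 12 include the fit with the GC trend removed, where the sign was the opposite (0.90). For SOCS3, PIM3 and BCL3 the sign turned when the GC trend of the libraries was removed. The cause of these differences was not tested.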

How the results depend on the processing

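Over all libraries PIM1, PIM2, PIM3 and JAK3 kept their direction and passed in all 23 alternatives, and CISH passed in none. Within the series PIM1, PIM2 and JAK3 passed in all 19 alternatives of each. Without control replicates 5 and 6, 4 genes were higher and 3 lower over all libraries, beside 51.8% of all tested genes called in either direction. This leaves 1 control library in series 2, whose spread is assumed to be that of the other libraries. There SOCS1 was 0.58, SOCS2 0.076, JAK2 -0.10 and BCL3 0.15, with the sign reversed. With the GC trend removed 2 genes were higher and 5 lower in series 1, 2 were higher in series 2 and 2 differed between series. Of all tested genes, 48.5% were called in either direction in series 1 with the trend removed, 48.9% in series 2 and 8.35% for the difference. Signs then reversed for SOCS3 (-0.13) and BCL3 (-0.022) over all libraries, for SOCS3 (-0.47) and BCL3 (-0.17) in series 1, for SOCS1 (0.17), SOCS3 (0.21), JAK2 (-0.047) and BCL3 (0.12) in series 2, and for the series differences of SOCS3 (0.68), PIM3 (0.90) and BCL3 (0.29). Removing the GC trend and leaving out control replicates 5 and 6 together reversed the series differences of SOCS3 (0.16), PIM1 (0.031), PIM3 (0.37) and BCL3 (0.14). With library size alone 2 genes were higher in series 2, beside 47.6% of all tested genes called in either direction. That setting moved the median of all genes by 0.07 and the share of rises among calls over all libraries from 50.3% to 63.9%. Removing the GC trend moved the share of rises to 45%. Leaving out 1 library at a time gave 2 to 3 higher and 2 to 3 lower genes over all libraries, 4 to 5 and 3 to 4 in series 1, 1 to 2 and 2 to 5 in series 2 (5 lower without control replicate 4) and 2 to 7 series differences. In those fits 45.5% to 49.5% of all tested genes were called over all libraries, in either direction. The range was 38.6% to 51% in series 1, 38.4% to 51.6% in series 2 and 4.45% to 32.2% for the series difference. SOCS3 over all libraries ran from -0.026 (without control replicate 3) to 0.083, and JAK2 in series 2 from -0.051 (without control replicate 6) to 0.10. On distances from the group mean, title numbers showed no pairing of the libraries (correlations from -0.41 to 0.23, and 0 of 6 controls matched their own number best). Those distances also carry the series and the GC trend, so they cannot show whether libraries pair within a series. On distances from the mean of group and series, libraries of the same library number had correlations from -0.16 to 0.055. With the title number as a replicate block 2 genes were higher and 2 lower, beside 42.2% of all tested genes called in either direction. With the block and the GC trend removed 3 and 3 were, beside 51%, with SOCS3 at -0.12 and BCL3 at -0.025. With the library number as a block 6 series differences passed, beside 8.89% of all tested genes. DESeq2 gave no adjusted p for the series difference of CISH. The causes of these changes were not tested. The few counts of CISH and SOCS2 limit what can be seen of them.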

Other observations

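Counted per kilobase, SOCS4 and SOCS7 followed SOCS3 as the largest members of the SOCS family in TMD8, and SOCS1 took 9.0% ± 3.32 of the family sum in controls and 12.3% ± 3.20 with IRF4 shRNA. SOCS4 took 22.7% ± 3.76 of the family sum in controls and 23.3% ± 2.0 with IRF4 shRNA, SOCS7 took 21.4% ± 1.43 and 16.1% ± 1.18, and SOCS6 took 7.71% ± 0.957 and 7.74% ± 0.554 (SD, n = 6 each). SOCS5, a member linked to receptors of the EGF and IL-4 type, took 5.47% ± 0.722 and 6.76% ± 0.474. The family sum in series 1 was 41.3 ± 1.16 CPM per kb in controls and 45.4 ± 0.666 with IRF4 shRNA, and in series 2 it was 43.1 ± 1.03 and 40.6 ± 0.990 (SD, n = 3 each), so it was higher with IRF4 shRNA in 1 series and lower in the other, without a test.

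Receptor chains that did not rise included IL6R, the IL-6 binding chain, which fell from 6.38 ± 0.446 to 2.54 ± 0.481 CPM (log2 fold change -1.33, SE 0.11), and its partner IL6ST, gp130, at 5.33 ± 0.882 and 4.46 ± 0.672 CPM (log2 fold change -0.26, edgeR adjusted p = 0.112). IL13RA1 fell from 12.6 ± 0.734 to 8.63 ± 1.66 CPM, by 0.83 in series 1 and 0.30 in series 2 on the log2 scale. Of the interferon gamma receptor chains, IFNGR1 rose from 27.3 ± 2.25 to 42.7 ± 1.70 CPM (log2 fold change 0.65, edgeR adjusted p = 1.31e-07), and IFNGR2 was at 96.4 ± 2.96 and 89.6 ± 6.35 CPM and did not pass (log2 fold change -0.11, edgeR adjusted p = 0.0696; SD, n = 6 each). IL2 had no count in controls and averaged 0.290 CPM with IRF4 shRNA. These genes were chosen after their values were seen.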
